A study of Mus musculus with 12 samples.

Results

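Regulated exocytosis, the calcium-triggered release of stored hormone, was examined through 45 genes in the pituitary of newborn mice (postnatal day 0) whose posterior lobe had been taken out before RNA sequencing. The 45 genes were chosen by name, with earlier results of these data known. They cover synaptotagmins and synaptotagmin-like proteins, SNAREs, RAB3 and RAB27 GTPases, priming factors, complexins, an SM protein, SV2 glycoproteins, RIMs and rabphilins. All 45 were found among the 27129 genes of the per-library table. There were 12 libraries. In the 6 libraries labelled mutant, the gene for the LIM-homeodomain factor ISL1 had 1 floxed and 1 null allele (Isl1 fx/-), together with a transgene that drives Cre recombinase in progenitors of the pituitary. The 6 control libraries carried the same Cre transgene, with 1 floxed and 1 intact allele (Isl1 +/fx), so both groups carried Cre and a floxed allele. The design addresses which genes differ when Isl1 is deleted in these progenitors. The labels do not say whether a library came from 1 animal or from several, and p-values measure only the spread between these samples.

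Endocrine cells of the anterior pituitary keep their hormones in dense-core granules. RAB3 and RAB27 GTPases sit on the granule membrane and, through effectors such as granuphilin and rabphilin, tether it to the plasma membrane. The vesicle SNARE VAMP2 pairs with SNAP25 and a syntaxin, CADPS and UNC13 proteins prime the granule, and synaptotagmins trigger fusion when calcium binds to them.

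Libraries labelled mutant held 45415453 to 61533576 fragments and control libraries 46204920 to 51535425. The targeted gene went against a loss of its transcripts: Isl1 was at 53.4 to 68.2 CPM in libraries labelled mutant, against 31.8 to 40.8 CPM in controls, with a log2 fold change of 0.74 (edgeR adjusted p = 8.7e-06). CPM here is the count of fragments of a gene over the library's total for all tested genes, after TMM scaling. These values pool all exons and do not show whether the floxed part was transcribed, so each direction given here compares libraries by their labels, mutant over control. Of the cell types a pituitary gland holds, the gonadotrope and thyrotrope marker lists were lower in the libraries labelled mutant. Of their genes, 3 of 5 and 4 of 4 were lower with edgeR at an adjusted p under 0.05, with Cga on both lists. The somatotrope and lactotrope list had 0 of 5 genes past that level. The corticotrope and melanotrope list had 1 of 4 tested (Pax7, lower). Of all tested genes, 2.75% were lower at that level. Genes of motile cilia (6 of 6 tested) and of stratified epithelium (7 of 7) were higher, against 4.30% of all tested genes. The marker lists were chosen with earlier results of these data known, so these counts describe the samples and test nothing. Of the neuropeptide genes made by hypothalamic neurons, Oxt stayed under 1 CPM in every library, and Avp was at 1.18 to 2.16 CPM in libraries labelled mutant and at 1.19 to 2.21 CPM in controls. The 4 genes listed for pituicytes, the glia of the posterior lobe, were detected and summed to 91.8 to 116 CPM in libraries labelled mutant and 106 to 120 CPM in controls, and 0 of them passed with edgeR, adjusted or unadjusted.

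Transcripts of the central fusion machinery were abundant in both groups. Levels per transcript length (FPKM, fragments scaled by transcript length and library depth) placed the vesicle SNARE Vamp2 highest, at 125 ± 8.05 FPKM in libraries labelled mutant and 130 ± 6.31 FPKM in controls (SD, n = 6 each). Its plasma-membrane partner Snap25 followed with 89.0 ± 4.93 FPKM in libraries labelled mutant and 90.3 ± 9.25 FPKM in controls. The fast calcium sensor Syt1 was the highest synaptotagmin, at 62.6 ± 4.40 FPKM in libraries labelled mutant and 59.0 ± 4.80 FPKM in controls. Sytl4, which encodes granuphilin, a RAB27 effector that docks granules, stood at 57.3 ± 2.95 FPKM in libraries labelled mutant and 57.2 ± 4.93 FPKM in controls. The highest GTPase was Rab27a, which marks secretory granules, with 56.6 ± 4.82 FPKM in libraries labelled mutant and 65.4 ± 5.48 FPKM in controls. The lowest of the 45 was Syt2, a calcium sensor of fast synapses, at 0.125 ± 0.0316 FPKM in libraries labelled mutant and 0.139 ± 0.0644 FPKM in controls.

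**Figure D1:**
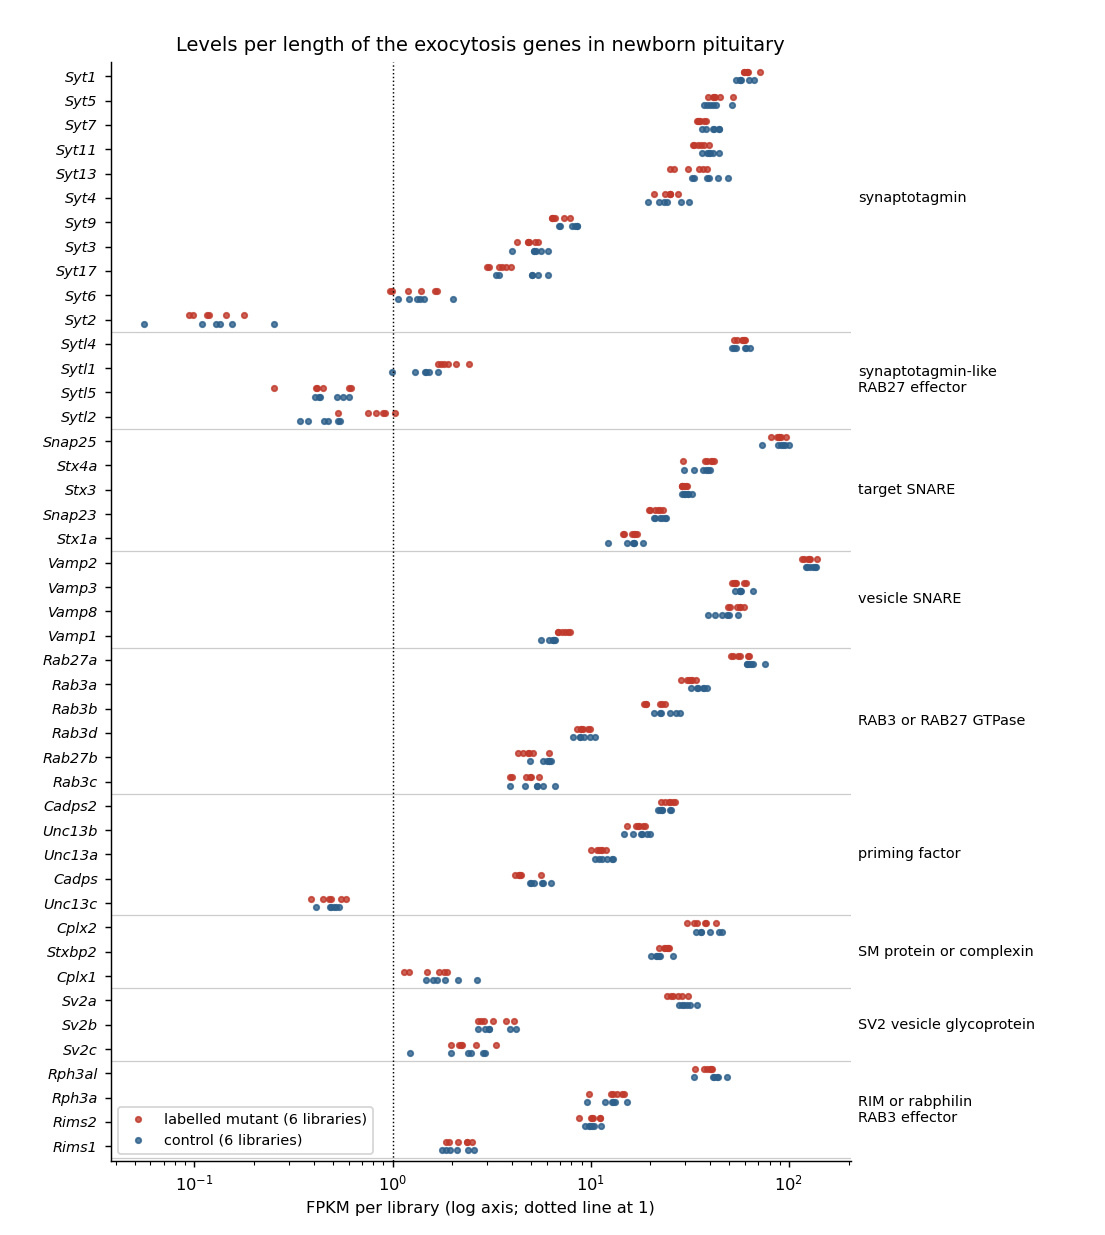
FPKM of each of the 45 exocytosis genes in each library, on a log axis, grouped by role and ordered within a role by the control mean. Red points are the 6 libraries labelled mutant and blue points the 6 control libraries. Vamp2 and Snap25 lie highest, Sytl1 lies above 1 FPKM in 11 of 12 libraries, and Syt2, Sytl5 and Unc13c lie below 1 FPKM throughout.

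Within each role, the order of the mean levels was the same in both groups, apart from Sytl2 and Sytl5. Neighbours in that order were not all apart: Syt7, Syt11 and Syt13 overlapped in their ranges over libraries in both groups, as did Vamp3 and Vamp8. In libraries labelled mutant, Sytl2 averaged 0.824 FPKM and Sytl5 averaged 0.457 FPKM. In controls, Sytl2 averaged 0.452 FPKM and Sytl5 averaged 0.491 FPKM, with overlapping ranges. In mutant 0 and control 0, FPKM departed from the ratio to CPM seen in the other libraries by more than 10% for 15 and 12 of the 41 tested genes, so differences between groups are given in CPM.

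Of the 45 genes, 41 passed the filter of at least 1 FPKM in at least 6 libraries and were tested with edgeR, with a threshold of 0.05 on the p-value adjusted (Benjamini-Hochberg) over all genes tested. Sytl1 and Vamp1 were higher in libraries labelled mutant, and Syt7 and Rab27b were lower. The share of all 15246 tested genes called higher was 4.30% and the share called lower 2.75%, or 7.05% in either direction, so the count of 4 of 41 lay near that background. The groups did not overlap in CPM for Sytl1 and Syt7, against 2.91% of all tested genes with the libraries labelled mutant higher, 1.37% lower and 4.28% in either direction. The median log2 fold change was -0.05 over the 41 genes and -0.0036 over all tested genes, and 28 of the 41 (68.3%) were negative, against 51.4% of all tested genes. An unadjusted p under 0.05 was found for 16 of the 41 genes (39.0%), against 22.3% of all tested genes. In these bulk samples, fewer cells of a type and less RNA per cell cannot be told apart.

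**Figure D2:**
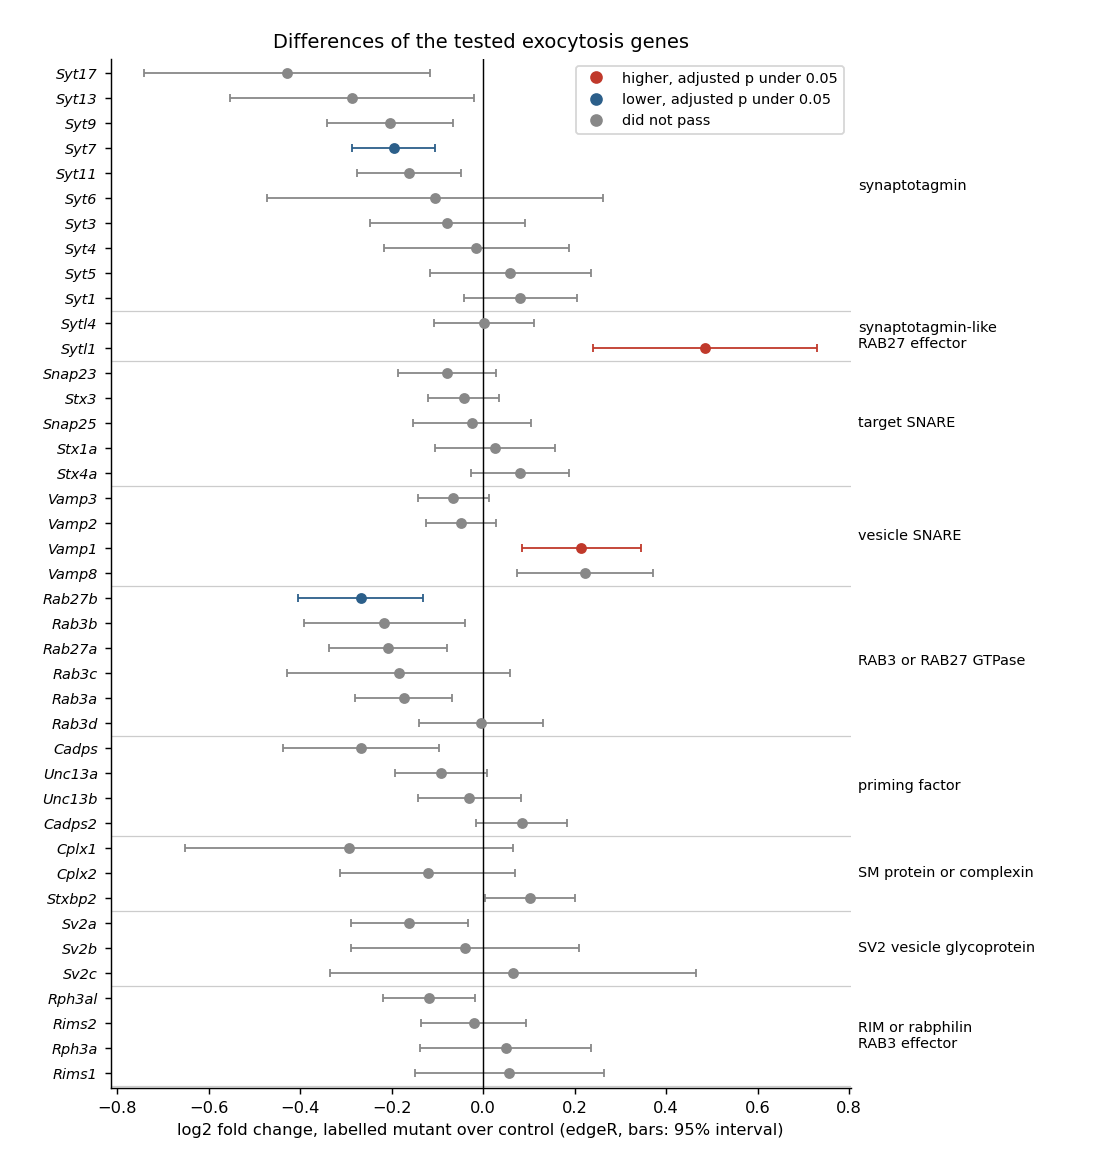
Log2 fold change of the libraries labelled mutant over the control libraries for the 41 tested exocytosis genes, with the 95% interval from edgeR, grouped by role. Red and blue mark genes higher or lower at an adjusted p under 0.05, and grey marks the rest. Sytl1 and Vamp1 lie to the right, Syt7 and Rab27b to the left, and all 6 GTPases have a negative estimate.

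Syt7, the high-affinity calcium sensor of slow and sustained release, was lower in libraries labelled mutant. Its level was 231, 236, 236, 246, 248 and 254 CPM in libraries labelled mutant, against 256, 257, 278, 278, 295 and 296 CPM in controls, each set in rising order. The lowest control library lay just above the highest library labelled mutant. The log2 fold change was -0.20 (standard error 0.042; edgeR adjusted p = 0.0129). The exact two-sided permutation test over all 924 assignments of the 12 libraries gave p = 0.00216, the smallest it can give. The gene spans chr19:10389090-10453181 (mm10), an interval that also holds the predicted gene Gm26859, and the kit keeps no strand. The authors' deposited gene table gave Syt7 a log2 fold change of -0.20 and q = 0.0839. In the authors' deposited table of transcripts, the most abundant of its 3 transcripts stood at 15.2 FPKM in the mutant group and 19.0 FPKM in controls (q = 0.0874). The least abundant one stood at 8.30 FPKM in the mutant group and 7.93 FPKM in controls in the authors' deposited table. The edgeR call held in each of the 12 fits that left out 1 library, and limma on log2(FPKM + 1) did not make it (adjusted p = 0.0652).

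With edgeR the other synaptotagmins did not pass the threshold, and 7 of the other 9 tested had a negative estimate. DESeq2 on the same genes called 3 of them lower, with adjusted p of 0.0321 for Syt9, 0.0442 for Syt11 and 0.0431 for Syt17. Syt1 had a log2 fold change of 0.08 with a 95% interval of -0.04 to 0.20, and its groups overlapped. Syt17, which encodes a synaptotagmin-related protein with paired C2 domains, showed the most negative estimate of the 41 genes, -0.43 with a standard error of 0.145 (edgeR adjusted p = 0.0961). Its level was 4.44, 5.15 and 7.02 CPM in libraries labelled mutant, against 4.93, 7.43 and 8.97 CPM (lowest, median and highest) in controls. Syt13, an atypical synaptotagmin that does not depend on calcium, was at 93.0 to 148 CPM in libraries labelled mutant and at 120 to 181 CPM in controls (log2 fold change -0.29, edgeR adjusted p = 0.191). The authors' deposited gene table gave q = 0.0012 for Syt13 and q = 0.0050 for Syt17, both lower in the mutant group. Syt9, a calcium sensor of secretory granules, had a log2 fold change of -0.20 (edgeR adjusted p = 0.0757), and Syt11, which does not bind calcium, one of -0.16 (edgeR adjusted p = 0.0824). The estimates of Syt3, Syt4, Syt5 and Syt6 lay between -0.10 and 0.06, with intervals that included 0.

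Sytl1, which encodes a synaptotagmin-like RAB27 effector (SLP1; chr4:133253090-133263087), was higher in libraries labelled mutant at a low level. The 6 libraries labelled mutant gave 3.02, 3.16, 3.41, 3.75, 3.87 and 4.36 CPM, against 2.08, 2.31, 2.63, 2.64, 2.73 and 3.01 CPM in the 6 controls, each set in rising order. The groups touched without overlapping. The log2 fold change was 0.48 with a standard error of 0.114 and a 95% interval of 0.24 to 0.73 (edgeR adjusted p = 0.0211), and the exact permutation test gave p = 0.00216. The edgeR call was lost without control 1 (adjusted p = 0.0558). Its relative Sytl4 stood at 194 to 222 CPM in libraries labelled mutant and at 194 to 232 CPM in controls. The estimate for Sytl4 was 0.0024 on the log2 scale, with an interval of -0.11 to 0.11. Sytl2, which encodes SLP2, a RAB27 effector known in epithelial cells and melanocytes (chr7:90348699-90410439), reached 1 FPKM in 1 library and was not in the main test. It stood at 2.08, 2.96, 3.34, 3.61, 3.69 and 4.59 CPM in libraries labelled mutant, against 1.38, 1.47, 1.81, 1.91, 2.12 and 2.29 CPM in controls. Among the libraries labelled mutant, 1 fell inside the control range. In the edgeR fit without the level filter its log2 fold change was 0.87 with a standard error of 0.177 (adjusted p = 0.00745). That fit called 4.0% of 24285 genes higher. Sytl2 was also the 1 member marked in the authors' deposited table (log2 fold change 0.87, q = 0.0012), where a mark needs a fold minimum besides a low q and 3.61% of 18309 genes carry it. In the authors' deposited table, 8 members had a q of at most 0.05. Of these, Sytl1 and Sytl2 were higher and Cadps, Rab27a, Rab27b, Rab3b, Syt13 and Syt17 were lower in the mutant group. The share of all genes at that q was not taken, and the 3.61% above holds for the stricter mark only. Sytl5, another RAB27 effector, was at 0.552 to 1.35 CPM in libraries labelled mutant and 0.888 to 1.30 CPM in controls and was not tested.

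**Figure D3:**
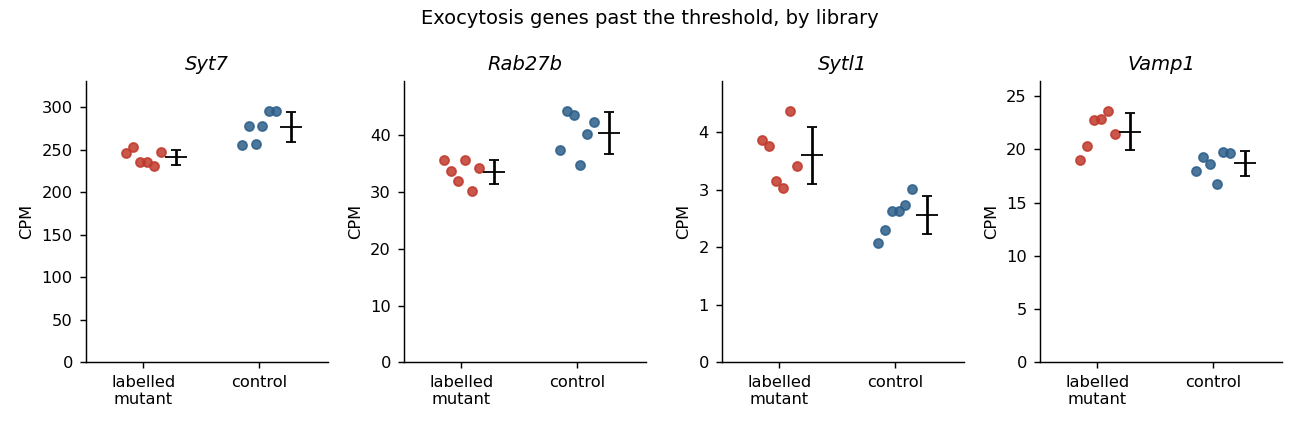
CPM of Syt7, Rab27b, Sytl1 and Vamp1 in each library, with libraries labelled mutant (red) left of control libraries (blue). The bar beside each set is the mean with the SD over 6 libraries, and each axis starts at 0. The sets are apart for Syt7 and Sytl1 and overlap for Rab27b and Vamp1.

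Vamp1, a vesicle SNARE of neurons and neuroendocrine cells (chr6:125215581-125222306), was higher in libraries labelled mutant by a small margin. The libraries labelled mutant gave 19.0, 20.3, 21.4, 22.8, 22.9 and 23.6 CPM, against 16.7, 18.0, 18.6, 19.3, 19.7 and 19.8 CPM in controls. The lowest library labelled mutant lay within the control range. The log2 fold change was 0.21 with a standard error of 0.0607 (edgeR adjusted p = 0.0493; exact permutation p = 0.0108). Leaving out any 1 library other than mutant 0 ended this call (highest edgeR adjusted p 0.108). The authors' deposited gene table gave Vamp1 a log2 fold change of 0.21 and q = 0.185. The abundant Vamp2 had a log2 fold change of -0.05 with an interval of -0.12 to 0.03, and Vamp3, the widespread cellubrevin, one of -0.07. Vamp8, a vesicle SNARE of exocrine and blood cell granules, was at 30.8 to 35.9 CPM in libraries labelled mutant and at 23.8 to 33.3 CPM in controls (log2 fold change 0.22, edgeR adjusted p = 0.0702), and DESeq2 called it higher.

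The upstream sequence of the 2 higher genes is shown, because both carry called differences and have an entry in the RefSeq promoter table (GRCm38.p6, the build that mm10 names). The stretches end at the base before the RefSeq start of each gene and read 5′ to 3′ along the gene's own strand. Sytl1 lies on the minus strand (chr4:133263088-133263337) and Vamp1 on the plus strand (chr6:125215331-125215580). Capitals mark the E-box CAGCTG in Sytl1 and the GC box GGGCGG in Vamp1.
Sytl1: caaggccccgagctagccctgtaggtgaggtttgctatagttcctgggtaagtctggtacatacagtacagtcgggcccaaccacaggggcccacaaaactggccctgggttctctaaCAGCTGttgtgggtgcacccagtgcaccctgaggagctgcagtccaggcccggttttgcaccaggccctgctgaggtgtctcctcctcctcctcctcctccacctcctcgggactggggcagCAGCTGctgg
Vamp1: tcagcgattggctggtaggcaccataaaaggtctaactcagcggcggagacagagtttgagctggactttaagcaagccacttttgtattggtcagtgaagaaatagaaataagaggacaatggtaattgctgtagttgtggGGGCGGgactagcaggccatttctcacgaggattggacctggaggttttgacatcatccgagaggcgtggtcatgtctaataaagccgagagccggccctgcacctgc
The Sytl1 stretch held CAGCTG at 2 places and had 61.6% G and C. The Vamp1 stretch held GGGCGG at 1 place and had 50.4% G and C. Searched on both strands, CAGCTG was found in 13.0% and GGGCGG in 32.7% of the 32851 stretches of the same length in that table. Of the 45 genes, 34 matched the table with 45 starts, of which 16 held CAGCTG and 26 held GGGCGG. The cAMP response element TGACGTCA was in 0 of the 45 stretches and in 1.55% of all, and the homeodomain core TAATTA in 1 (Syt6) and in 4.84% of all. These matches describe letters and not bound sites.

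The 5 member SNAREs of the plasma membrane did not pass the edgeR threshold in either direction. Snap25 was at 163 to 182 CPM in libraries labelled mutant and at 146 to 198 CPM in controls, where the log2 fold change was -0.02 (95% interval -0.15 to 0.11). Stx1a, the syntaxin of neuronal and endocrine release, had an estimate of 0.03 with an interval of -0.10 to 0.16. Snap23, Stx3 and Stx4a, which serve release in many cell types, had estimates of -0.08, -0.04 and 0.08. For none of the 5 genes did the unadjusted edgeR p lie under 0.05.

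Among the GTPases, Rab27b (chromosome 18), which acts with RAB27A in granule docking, was lower in libraries labelled mutant. The libraries labelled mutant gave 30.1, 32.0, 33.6, 34.2, 35.5 and 35.7 CPM, against 34.7, 37.4, 40.2, 42.2, 43.5 and 44.2 CPM in controls. Only the lowest control library reached into the range of the other set. The log2 fold change was -0.27 (standard error 0.0632; edgeR adjusted p = 0.0215). The exact permutation test gave p = 0.00649. The authors' deposited gene table gave Rab27b a log2 fold change of -0.25 and q = 0.023. In the authors' deposited table of transcripts, the most abundant of its 2 transcripts stood at 2.90 FPKM in the mutant group and 3.82 FPKM in controls (q = 0.0533). The other stood at 2.06 FPKM in the mutant group and 2.07 FPKM in controls in the authors' deposited table. The edgeR call was lost without mutant 2 (adjusted p = 0.0581) and without control 1 (adjusted p = 0.0554), and limma on log2(FPKM + 1) did not make it (adjusted p = 0.142). The FPKM of Rab27b departed from the usual ratio to CPM by 23.8% in mutant 0 and 18.5% in control 0. The part of this in the limma result was not tested.

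The other 5 GTPases had negative estimates and did not pass with edgeR. Rab3a, the main RAB3 of neurons and endocrine cells, was at 37.1 to 43.8 CPM in libraries labelled mutant and at 42.4 to 49.4 CPM in controls (log2 fold change -0.17, edgeR adjusted p = 0.0516). Rab27a was at 148 to 180 CPM in libraries labelled mutant and at 178 to 218 CPM in controls (log2 fold change -0.21, edgeR adjusted p = 0.0535). Both sat just outside the threshold, and their groups overlapped in 1 or 2 libraries. DESeq2 on the same genes called both lower, with adjusted p of 0.0140 for Rab3a and 0.0159 for Rab27a. DESeq2 called 3 members higher and 8 lower, against 6.13% and 5.29% of all tested genes. Rab3b, a RAB3 known from the anterior pituitary, had a log2 fold change of -0.22 (edgeR adjusted p = 0.135; q = 0.0394 in the authors' deposited gene table), Rab3c one of -0.18, and Rab3d, a RAB3 of exocrine granules, one of -0.0048. The summed level of the 6 genes was 351 to 408 CPM in libraries labelled mutant and 407 to 486 CPM in controls.

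With edgeR no priming factor passed the threshold. Cadps (CAPS1), which primes dense-core granules, was at 22.7, 23.9 and 30.7 CPM (lowest, median and highest) in libraries labelled mutant, against 27.2, 29.7 and 34.8 CPM in controls. Its log2 fold change was -0.27 with a standard error of 0.0792 (edgeR adjusted p = 0.0608), and 1 library labelled mutant reached into the control range. DESeq2 called it lower (adjusted p = 0.0197), and the authors' deposited gene table gave q = 0.0308. Its relative Cadps2 was at 108 to 127 CPM in libraries labelled mutant and at 105 to 120 CPM in controls (log2 fold change 0.08, edgeR adjusted p = 0.302). Unc13a and Unc13b, which open syntaxin for SNARE pairing, had estimates of -0.09 and -0.03. Unc13c stayed under 1 FPKM in all 12 libraries, with 3.18 to 4.79 CPM in libraries labelled mutant and 3.34 to 4.61 CPM in controls.

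Stxbp2 encodes MUNC18-2, an SM protein that guides syntaxins outside neurons. It was at 61.2 to 64.8 CPM in libraries labelled mutant and at 55.5 to 67.2 CPM in controls (log2 fold change 0.10, edgeR adjusted p = 0.20). Cplx2, which encodes the complexin most common in these glands and binds assembled SNAREs, was at 152 to 212 CPM in libraries labelled mutant and at 169 to 225 CPM in controls (log2 fold change -0.12, edgeR adjusted p = 0.463). Cplx1 was at 2.38 to 3.89 CPM in libraries labelled mutant and at 3.06 to 5.52 CPM in controls, where the log2 fold change was -0.29 (95% interval -0.65 to 0.07).

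The SV2 glycoproteins of the vesicle membrane and the RAB3 effectors did not pass either. Sv2a was at 94.7 to 118 CPM in libraries labelled mutant and at 109 to 132 CPM in controls (log2 fold change -0.16, edgeR adjusted p = 0.123). Sv2b and Sv2c had estimates of -0.04 and 0.07 with intervals that included 0. Rph3al, which encodes the RAB effector NOC2 of endocrine cells, was at 28.4 to 32.2 CPM in libraries labelled mutant and at 30.8 to 36.6 CPM in controls (log2 fold change -0.12, edgeR adjusted p = 0.155). Rims1, Rims2 and Rph3a, the RIMs and rabphilin of the release site, had estimates of 0.06, -0.02 and 0.05.

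Outside these 45 genes, 86 further exocytosis genes were listed, of which 77 were tested. Of these, edgeR called 2 higher and 4 lower, with a median log2 fold change of -0.03. Over all tested genes 4.30% were called higher and 2.75% lower, so these counts lay near the background. Both higher genes encode RAB27 effectors. Mlph, which encodes melanophilin, the link between RAB27A and myosin in melanocytes, was at 8.98 to 10.8 CPM in libraries labelled mutant, against 4.17 to 7.09 CPM in controls. Its log2 fold change was 0.72 with a standard error of 0.121 (edgeR adjusted p = 0.00232), the groups did not overlap, and the call held in all 12 fits that left out 1 library. Exph5, which encodes exophilin 5, was at 18.6 to 24.8 CPM in libraries labelled mutant and at 12.6 to 20.6 CPM in controls (log2 fold change 0.42, edgeR adjusted p = 0.0410), and was called in 3 of those 12 fits. Myrip, a further RAB27 effector, ranged from 10.1 to 47.3 CPM in libraries labelled mutant and from 8.74 to 23.3 CPM in controls (edgeR adjusted p = 0.278). The synaptotagmin-like gene Sytl3, also on the list, had a negative estimate (log2 fold change -0.14, edgeR adjusted p = 0.718).

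The 4 lower genes differed by small margins. Syp, which encodes the vesicle protein synaptophysin, was at 75.4 to 84.1 CPM in libraries labelled mutant and at 84.6 to 94.7 CPM in controls (log2 fold change -0.15, edgeR adjusted p = 0.0292). Doc2a, a calcium sensor of spontaneous release, was at 7.72 to 8.35 CPM in libraries labelled mutant and at 8.49 to 10.2 CPM in controls (log2 fold change -0.25, edgeR adjusted p = 0.0129). The syntaxin gene Stx2 and the exocyst gene Exoc5 had log2 fold changes of -0.12 each (edgeR adjusted p = 0.0371 for Stx2 and 0.0466 for Exoc5). The interval of Doc2a overlaps Ino80e, that of Syp overlaps Gm14703 and that of Exoc5 overlaps Mudeng. All 9 tested exocyst genes, which encode a tethering complex, had negative estimates, against 51.4% of all tested genes. Their median log2 fold change was -0.04, and 1 passed, against 2.75% of all tested genes called lower. An unadjusted edgeR p under 0.05 was found for 2 of the 9, near the 22.3% of all tested genes. In the 12 fits that left out 1 library, Doc2a was called in 12, Syp in 7, Exoc5 in 3 and Stx2 in 2.

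**Figure D4:**
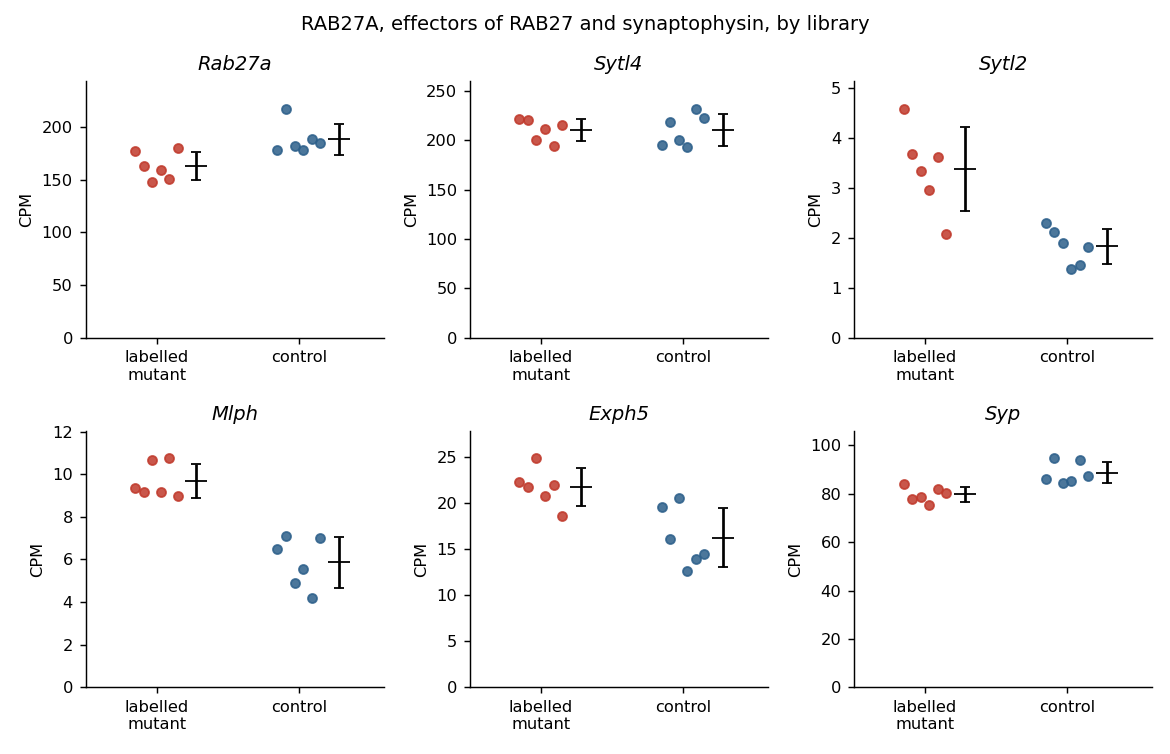
CPM of Rab27a, of the RAB27 effectors Sytl4, Sytl2, Mlph and Exph5, and of Syp in each library, with libraries labelled mutant (red) left of control libraries (blue). The bar beside each set is the mean with the SD over 6 libraries, and each axis starts at 0. Mlph lies higher and Syp lower in libraries labelled mutant without overlap, while the sets overlap for the other 4 genes.

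Genes of the granule contents were among the lower ones. Chromogranin A (Chga), which packs hormone into granules, was at 1069 to 1228 CPM in libraries labelled mutant and at 1344 to 1761 CPM in controls (log2 fold change -0.45, edgeR adjusted p = 3.4e-04). Chgb and Scg2, which encode further granins, had log2 fold changes of -0.75 and -0.39. Of the 10 genes on the list of granule cargo and processing, 3 were lower and 0 higher with edgeR. Over all tested genes, 2.75% were lower and 4.30% higher. An unadjusted edgeR p under 0.05 was found for 5 of the 10, against 22.3% of all tested genes. Estimates were positive for Vgf (0.17) and Pcsk1 (0.15), and those of Cpe, Pcsk2 and Pcsk1n were -0.05, -0.02 and -0.06. The list's sum was 4225 to 4757 CPM in libraries labelled mutant and 4918 to 6188 CPM in controls. The sum over the 5 gonadotrope markers was 58.3 to 114 CPM in libraries labelled mutant and 216 to 778 CPM in controls. The sum over the 4 thyrotrope markers was 288 to 385 CPM in libraries labelled mutant and 509 to 886 CPM in controls. Cga is in both sums, at 48.1 to 85.3 CPM in libraries labelled mutant and 192 to 548 CPM in controls. In the other direction, the stratified epithelium list summed to 56.3 to 123 CPM in libraries labelled mutant and 12.4 to 17.5 CPM in controls, and the motile cilia list to 73.1 to 164 CPM in libraries labelled mutant and 31.6 to 36.5 CPM in controls. The list of secretory airway-type epithelium summed to 137 to 293 CPM in libraries labelled mutant and 9.30 to 20.8 CPM in controls, with its defining gene Scgb1a1 under 1 CPM in every library. The list of simple epithelium summed to 503 to 527 CPM in libraries labelled mutant and 394 to 461 CPM in controls. The list of pituitary progenitors summed to 160.2 to 178.1 CPM in libraries labelled mutant and 134.2 to 159.8 CPM in controls. Of its 4 genes, only Sox2 passed (log2 fold change 0.23, edgeR adjusted p = 0.0335), and 2 had negative estimates. Sums overlapped between groups for somatotropes and lactotropes, at 39400 to 44770 CPM in libraries labelled mutant and 39830 to 55360 CPM in controls. They also overlapped for corticotropes and melanotropes, at 7032 to 8840 CPM in libraries labelled mutant and 5698 to 8338 CPM in controls. The neuron list, of which 1 of 8 tested genes was lower, summed to 89.4 to 106 CPM in libraries labelled mutant and 93.0 to 121 CPM in controls. The part of these cell types in the values of Syt7, Rab27b, Sytl1, Sytl2 and Vamp1 was not tested.

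Xist, which marks libraries with female RNA, was high in 3 libraries, namely mutant 0, mutant 3 and control 4. Without them, edgeR on 4 libraries labelled mutant and 5 controls called 0 of the 41 genes. It called 2.49% of all genes higher and 0.945% lower. At an unadjusted p under 0.05, 3 of the 41 genes were higher and 12 lower. The share of all genes at that unadjusted level was not taken for these libraries. The log2 fold changes were then -0.17 for Syt7 (edgeR adjusted p = 0.111), -0.31 for Rab27b (0.0599), 0.54 for Sytl1 (0.0604) and 0.26 for Vamp1 (0.0601), each with the sign it had over all 12 libraries. Of the further exocytosis genes called over all 12 libraries, Mlph kept its call (edgeR adjusted p = 0.00922). Exph5 (0.179), Doc2a (0.1125), Syp (0.118), Exoc5 (0.129) and Stx2 (0.0794) lost theirs.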

How the data were processed

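RNA of 12 pituitary samples was sequenced from TruSeq v2 libraries, per the labels' protocols. Per the submitters' processing notes, the tools included TopHat2 2.0.9, Bowtie2 2.1.0 and Cuffdiff 2.1.1, with build mm10. The deposited per-library table holds estimated counts of fragments and FPKM, per the file headers, with 12 columns of a further fragment measure left aside. The authors' deposited comparison tables give FPKM per group, log2 fold changes and q-values for genes and transcripts.

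Counts were rounded to whole numbers. Genes with at least 1 FPKM in at least 6 of 12 libraries were tested (15246 of 27129) with edgeR 4.0.16 (R 4.3.3), quasi-likelihood, TMM scaling, no covariate. The standard error comes from the fold change and its F statistic. DESeq2 1.42.0 and limma 3.58.1 served as alternatives, and figures were drawn with matplotlib 3.10.9. The test was checked on simulated counts. No 2 libraries of a group matched within counting error: over the 30 pairs, chi-square divided by its degrees of freedom ran from 17.5 to 41.6. The members, lists and marker genes were chosen with earlier results of these data known. All 45 members are accounted for. Of the other listed exocytosis genes, those past the threshold are named, and Myrip and Sytl3 were named after their values were seen.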

Additional observations from a re-analysis of the deposited data

Results flagged for a closer look

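For each of the 45 genes, both groups of 6 libraries were searched for a library standing apart from the other 5, by the gap to its neighbour as a share of the whole range. Of the 90 groups examined, 7 were marked, where chance marks about 1 in 20. Syt1 was at 337.3 CPM in mutant 4, against 279.2 to 294.6 CPM in the other libraries labelled mutant. The same library had 84.35 CPM of Syt5, against 66.98 to 72.3 CPM in the others, and 14.08 CPM of Sv2c, against 8.267 to 10.29 CPM. Vamp3 was at 117.8 CPM in mutant 3, against 102.7 to 108.2 CPM in the other libraries labelled mutant. Cadps was at 30.67 CPM in mutant 1, against 22.68 to 24.61 CPM in the others of its group. In controls, Rab27a was at 217.6 CPM in control 1, against 178.0 to 188.8 CPM in the other 5. Stxbp2 was at 67.15 CPM in control 5, against 55.5 to 57.81 CPM in the other controls.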

How the results depend on the processing

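The edgeR counts of members were 2 higher and 2 lower, and of all genes 656 higher and 419 lower. Over the 24 alternatives, 976 values of members were compared: 872 kept their direction and side of the threshold, 30 lost a call, 32 gained one and 42 changed sign, all of them uncalled. At a filter of 5 FPKM, 33 members were tested and 0 were higher (3 at an unadjusted p under 0.05). All genes then gave 283 higher and 192 lower. Sytl1 fell below that filter and was not tested, and Vamp1 had an edgeR adjusted p of 0.05205. Without the libraries with high Xist, members numbered 0 higher and 0 lower, with 379 and 144 for all genes. No other tool was run on those samples. edgeR's own filter gave 4 members lower (523 of 19345 genes) and DESeq2 8 (807 of all genes). limma gave 0 lower with either pseudocount (216 of all genes with 1, 203 with 0.1), with 11 at an unadjusted p under 0.05. Without both libraries numbered 0, 1 member was higher and 6 were lower (607 and 405 of all genes). Sytl1 then lost its call (edgeR adjusted p = 0.0633). With the Y-linked covariate 1 was higher and 3 were lower (583 and 376 of all genes). With the replicate number as a block, 1 member was higher and 4 were lower (672 and 401 of all genes), and 3 of the 4 calls were lost, with adjusted p of 0.0559 for Rab27b, 0.05005 for Sytl1 and 0.0623 for Vamp1. The call of Syt7 held, and Vamp8 (higher), Cadps, Syt9 and Syt13 (lower) were gained. The numbers were not taken to pair the samples, since same-numbered libraries correlated at 0.203, 0.001, 0.426, -0.09, 0.035 and 0.057 and 2 of 6 correlated best with their own number. Leaving out 1 library gave 0 to 3 members higher, 1 to 5 lower, 485 to 694 of all genes higher and 197 to 443 lower. The 0 arose without control 1, where 5 members were higher at an unadjusted edgeR p under 0.05. Of all calls, 61% were higher, 72.2% with library totals as the scaling, 53.7% with DESeq2 and 71% or 71.8% with limma.

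Estimates of uncalled members near 0 changed sign. Leaving out 1 library gave log2 fold changes of -0.0374 to 0.0387 for Rab3d, -0.0465 to 0.0183 for Rims2, -0.0003 to 0.11 for Rph3a, -0.0712 to 0.0081 for Snap25, -0.0161 to 0.0666 for Stx1a, -0.0893 to 0.0435 for Sv2b, -0.0584 to 0.15 for Sv2c, -0.068 to 0.0418 for Syt4, -0.19 to 0.0265 for Syt6, -0.0182 to 0.0325 for Sytl4 and -0.0593 to 0.0011 for Unc13b. Rab3d was 0.0119 with library totals and 0.0049 at 5 FPKM. Rims2 was 0.0363 without the high-Xist libraries, 0.0050 without both numbered 0, and 0.0139 and 0.0150 with limma. Stx1a was -0.0217 and Syt4 0.0641 without both numbered 0, and Syt4 was 0.0025 with library totals. Sytl4 was -0.0047 with edgeR's own filter, -0.0049 without one, -0.032 without both numbered 0 and -0.013 with the Y-linked covariate. Unc13b was 0.0194 without the high-Xist libraries. The cause was not tested.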
